A study of Sus scrofa with 12 samples.

Results

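Collagens, laminins, fibronectin, fibrillin, nidogen, periostin and the small proteoglycans of the extracellular matrix were followed in the jejunum of piglets before and after weaning. A gene belonged to the set if the deposited table named it as a collagen chain (COL, a type number, A and a chain number) or a laminin chain (LAM, then A, B or C and a number), or as FN1, FBN1, ELN, SPARC, DCN, LUM, BGN, POSTN, VCAN, NID1 or NID2. Of 17049 gene names in the table, 35 matched, and 29 of them had a mean of at least 0.5 FPKM (fragments scaled to transcript length and to the sequencing depth of the library) over the 12 libraries. The lowest gene inside the limit was COL9A2 at a mean of 1.11 FPKM, and the highest outside was COL8A2 at 0.248 FPKM. The table lists a further 14 genes of these families only by an Ensembl identifier, and 12 of those passed the limit. They include SPARC, ELN, NID1, LAMA3 and COL17A1, and they are described beside the 29 named genes but are not counted among them.

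The extracellular matrix of the intestine comprises a sheet and a meshwork. A thin basement membrane of type IV collagen, laminins and nidogens lies under the epithelium and around vessels, nerves and muscle cells, while the lamina propria and submucosa hold fibrils of collagens I, III and V that are decorated by decorin, lumican and biglycan. Most of these fibril components are made by fibroblasts and smooth muscle cells, and the epithelium itself makes the laminin and the transmembrane collagen that anchor it.

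Jejunum RNA from 12 pigs was sequenced as paired-end reads of poly(A) RNA, in 4 groups of 3 biological replicates. W_Con are 21-day-old piglets of sows fed a corn and soybean meal diet, and PW_Con are 28-day-old piglets from the same diet, 7 days after weaning. W_Res and PW_Res are the same ages from sows whose diet held 300 mg/kg resveratrol, a plant polyphenol, from 20 days after breeding and through gestation and lactation. The records describe Landrace semen and piglets kept in the farrowing pens once the sows had left, whereas the paper, which uses the control groups and calls them sucking and weaned, describes Yorkshire × Duroc litters moved to a nursing room. Age and weaning changed together in both diets, so that they cannot be told apart. In whole tissue, fewer cells of a type and less RNA per cell cannot be told apart either. The labels do not tie piglets to litters, and the p-values measure the spread between these 3 libraries a group.

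The libraries differed in their content of matrix and muscle RNA within groups. The 29 genes summed to 342 FPKM in W_Con replicate 3, the lowest library, and to 2528 FPKM in W_Res replicate 2, the highest, or 0.106% and 0.756% of the FPKM of those libraries. W_Res replicate 2 was the highest library for 21 of the 29 genes, and W_Con replicate 3 was the lowest for 15. Of the smooth muscle markers, 8 of 10 were found, and their sum ran from 156 FPKM in W_Con replicate 3 to 3991 FPKM in W_Res replicate 2. The fibroblast markers, 9 genes of which PDGFRB is listed under 2 entries, ran from 84.5 to 432 FPKM and the endothelial markers from 26.7 to 119 FPKM between the same libraries. The fibroblast list shares no gene with the 29, but it shares genes, DPT and MFAP5 among them, with the list of other matrix proteins described below. Those genes are counted in both lists. By group, the smooth muscle sum was 156 to 648 FPKM in W_Con, 421 to 573 in PW_Con, 671 to 3991 in W_Res and 206 to 645 in PW_Res. The part of these marker differences in the results was not tested. Enterocyte markers were present in every library, with sums from 4751 to 20930 FPKM, and APOA1 alone ran from 702 to 10667 FPKM. The single enterocyte markers did not all follow that sum. VIL1, KRT20 and EPCAM were lowest in W_Res replicate 2, at 296, 442 and 57.4 FPKM. APOA1, APOA4, FABP2 and SI were lowest in PW_Con replicate 3, and ANPEP in PW_Res replicate 3. Markers of the distal small intestine ran from 77.0 to 24562 FPKM and those of the proximal small intestine from 935 to 15252 FPKM within a tissue labelled jejunum. The main counts below are given with and without W_Con replicate 3 and W_Res replicate 2, a pair chosen for their summed matrix level. Pearson's r between replicates, across 12886 genes that are not independent, was 0.921 to 0.953 in W_Con, 0.935 to 0.947 in PW_Con, 0.881 to 0.911 in W_Res and 0.929 to 0.961 in PW_Res.

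**Figure D1:**
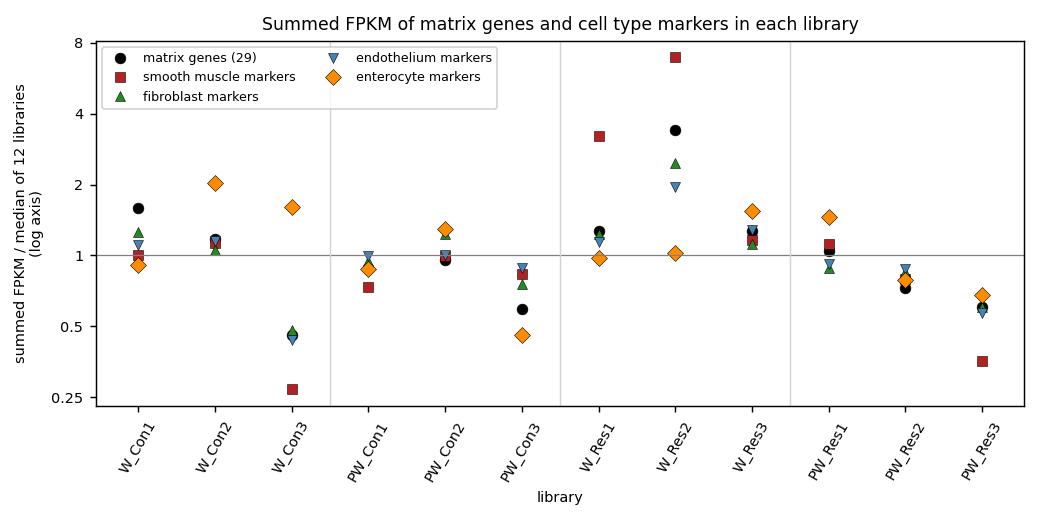
Summed FPKM of the 29 matrix genes and of 4 lists of cell type markers in each of the 12 libraries, divided by the median of the 12 libraries, on a log axis. The matrix sum and the smooth muscle, fibroblast and endothelial sums are all lowest in W_Con replicate 3 and all highest in W_Res replicate 2, whereas the enterocyte sum is lowest in PW_Con replicate 3. Of the single enterocyte markers, which are not drawn, VIL1, KRT20 and EPCAM were lowest in W_Res replicate 2.

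A gene is said to meet the standard when its unadjusted P from limma was under 0.05 and its log2 fold change was above 1 or below -1, as the study defined a changed gene. No matrix gene had a Benjamini-Hochberg adjusted p under 0.05 from limma in any comparison. The lowest adjusted p was 0.154 for weaning in control litters, 0.158 for weaning in resveratrol litters, 0.123 for diet at 21 days, 0.683 for diet at 28 days and 0.296 for the difference between the diets. At an unadjusted P under 0.05 there were 3, 13, 11, 0 and 4 genes in the same order, and the share of all genes past each limit is given with each comparison. For many of the genes that met it, values are also given without the library or libraries that decide the call. These stand beside the gene or in the paragraph on the comparison. For many, values are also given in a linear model of the kind the Ballgown package fits. That model adds a library-size covariate and is called the Ballgown-type model. "Rose" and "fell" are used below for genes that met the standard. Fold changes are on the scale of log2(FPKM + 1), so that changes of weakly expressed genes are compressed.

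Among the fibrillar collagens, which form the tensile fibrils of the stroma, COL3A1 and COL1A2 were the most abundant of the 29 genes, with means of 274 and 119 FPKM. COL3A1 measured 474, 252 and 105 FPKM in W_Con, 175, 203 and 63.1 in PW_Con, 289, 908 and 284 in W_Res, and 269, 145 and 116 in PW_Res. COL1A2, the second chain of type I collagen, measured 189, 122 and 48.9 FPKM in W_Con, 84.8, 102 and 40.7 in PW_Con, 138, 354 and 119.8 in W_Res, and 104, 68.4 and 54.0 in PW_Res. In both genes W_Res replicate 2 stood far above the other libraries and PW_Con replicate 3 was lowest, and the control groups overlapped. The resveratrol groups did not overlap: every PW_Res library lay below every W_Res library. COL1A2 fell from 21 to 28 days in the resveratrol litters, with a log2 fold change of -1.30 (SE 0.54, adjusted p = 0.252 from limma). It was at -0.81 without W_Res replicate 2, not past the standard, and in the Ballgown-type model it turned to 0.68. COL3A1, at -1.35 (SE 0.64, adjusted p = 0.296) in the same comparison, had a P over 0.05 and a larger SE. In control litters the fold changes were -0.82 (SE 0.64, adjusted p = 0.600) for COL3A1 and -0.55 (SE 0.54, adjusted p = 0.701) for COL1A2. The ratio of COL1A2 to COL3A1 was far steadier than either gene, at 0.387 to 0.644 over the 12 libraries with a median of 0.470, although both genes ranged 8.70-fold or more.

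Type V collagen starts the fibrils and sets their width, and its COL5A1 and COL5A2 chains were both highest in W_Res. COL5A1 measured 12.1, 13.4 and 4.62 FPKM in W_Con, 11.6, 13.4 and 8.58 in PW_Con, 16.0, 46.6 and 15.8 in W_Res, and 13.7, 9.97 and 7.34 in PW_Res. COL5A2 measured 21.4, 13.8 and 5.95 FPKM in W_Con, 11.4, 12.6 and 6.76 in PW_Con, 21.1, 36.7 and 20.2 in W_Res, and 16.3, 10.5 and 9.15 in PW_Res. W_Con replicate 3 was lowest for both, and the W_Res values lay above all PW_Res values. Both chains fell with weaning in the resveratrol litters, by 1.11 (SE 0.45, adjusted p = 0.238) and 1.04 (SE 0.41, adjusted p = 0.232) on the log2 scale in limma. COL5A1 also rose with maternal resveratrol at 21 days, at 1.23 (SE 0.45, adjusted p = 0.183), while COL5A2 was just under the fold limit, at 0.98 (SE 0.41, adjusted p = 0.234). None of these calls held without W_Res replicate 2, at -0.61 for COL5A1 and -0.78 for COL5A2 with weaning and 0.73 for COL5A1 at 21 days, and the Ballgown-type model turned the weaning values to 0.74 and 0.21. The third chain, COL5A3, had a mean of 6.24 FPKM and differed by -0.88 (SE 0.37, adjusted p = 0.249) and 0.90 (SE 0.37, adjusted p = 0.222) in those comparisons. COL11A2, a minor fibril collagen best known from cartilage, was low and uneven, at 1.79, 0.0787 and 0.0875 FPKM in W_Con, 0.469, 1.71 and 1.12 in PW_Con, 1.44, 1.98 and 4.41 in W_Res, and 2.42, 0.847 and 0.698 in PW_Res. Its rise at 21 days, 1.20 (SE 0.44, adjusted p = 0.189), set a W_Con group with 2 libraries under 0.1 FPKM against a W_Res group whose values overlapped the remaining one, and it did not meet the standard without W_Con replicate 3, at 0.97.

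The basement membrane collagens COL4A1 and COL4A2, which share a triple helix and lie head to head in the genome, came next in abundance, with means of 83.8 and 61.3 FPKM. COL4A1 measured 83.6, 82.8 and 25.9 FPKM in W_Con, 82.5, 72.8 and 46.3 in PW_Con, 79.3, 241 and 106 in W_Res, and 77.7, 58.7 and 49.9 in PW_Res. COL4A2 measured 46.2, 55.1 and 14.3 FPKM in W_Con, 56.8, 64.0 and 44.2 in PW_Con, 66.0, 184 and 70.6 in W_Res, and 47.4, 49.7 and 37.0 in PW_Res. The W_Con libraries were split, with replicate 3 far below the others, and for COL4A2 all 3 W_Res libraries exceeded all W_Con and all PW_Res libraries. At 21 days both chains rose with maternal resveratrol, COL4A2 with a log2 fold change of 1.49 (SE 0.48, adjusted p = 0.152 from limma) and COL4A1 with 1.15 (SE 0.49, adjusted p = 0.237). COL4A2 then fell with weaning in the resveratrol litters, at -1.08 (SE 0.48, adjusted p = 0.271), where COL4A1 was at -1.04 (SE 0.49, adjusted p = 0.292). In the control litters COL4A2 was instead 0.69 (SE 0.48, adjusted p = 0.546), with groups that overlapped. With W_Con replicate 3 and W_Res replicate 2 left out the rise at 21 days was 0.43 for COL4A2 and 0.14 for COL4A1, neither past the standard, and the Ballgown-type model gave 0.46 and 0.17. The fall of COL4A2 was -0.61 without W_Res replicate 2 and turned to 0.31 in that model. The difference between the 2 weaning effects was -1.77 (SE 0.68, adjusted p = 0.302) for COL4A2. That call was lost without W_Res replicate 2, and the difference was -0.22 in the Ballgown-type model. The COL4A1 to COL4A2 ratio stayed between 1.05 and 1.81 over the 12 libraries, with a median of 1.40. It was 1.71 ± 0.178 (SD, n = 3) in W_Con and 1.21 ± 0.214 in PW_Con, and those ranges did not overlap.

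Type VI collagen forms beaded microfilaments that link cells to the fibrils, and its COL6A2 and COL6A3 chains were both measured by name. COL6A2 measured 26.5, 35.1 and 10.1 FPKM in W_Con, 35.6, 39.1 and 49.4 in PW_Con, 47.9, 81.0 and 32.2 in W_Res, and 33.7, 31.3 and 32.4 in PW_Res. COL6A3 measured 24.9, 22.0 and 7.06 FPKM in W_Con, 17.6, 20.7 and 13.4 in PW_Con, 28.8, 60.4 and 24.5 in W_Res, and 21.4, 19.7 and 18.3 in PW_Res. COL6A2 was unlike the fibrillar genes in the control litters, because all PW_Con libraries lay above all W_Con libraries. Its log2 fold change there was 0.92 (SE 0.41, adjusted p = 0.317), just under the fold limit, and COL6A3 was at 0.09 (SE 0.43, adjusted p = 0.958). Both rose with maternal resveratrol at 21 days, COL6A2 at 1.20 (SE 0.41, adjusted p = 0.166) and COL6A3 at 1.09 (SE 0.43, adjusted p = 0.207), with groups that overlapped in each case. Those rises shrank to 0.36 and 0.17 with the 2 libraries left out and to 0.33 and 0.12 in the Ballgown-type model, none past the standard. The weaning effects of COL6A2 differed between the diets, at -1.53 (SE 0.58, adjusted p = 0.296). That call was lost without W_Res replicate 2, and the difference was -0.21 in the Ballgown-type model. COL6A2 was 1.06 to 2.02 times COL6A3 in 11 libraries and 3.68 times in PW_Con replicate 3. In that library COL6A2 was also 0.783 times COL3A1, against 0.0558 to 0.279 in the other 11. Of the other network collagens, COL8A1, COL26A1, COL28A1 and COL6A5 had means of 1.58 to 8.10 FPKM, and none had a P under 0.05 in any of the 5 comparisons. COL26A1 was listed at 0 in both W_Con replicate 3 and W_Res replicate 2. It measured 0.889, 1.42 and 0 FPKM in W_Con, 0.792, 2.45 and 0.219 in PW_Con, 1.75, 0 and 9.61 in W_Res, and 0.855, 0.928 and 0.0389 in PW_Res. Its calls below without W_Res replicate 2 therefore rest largely on W_Res replicate 3.

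The fibril-associated and transmembrane collagens were lower. COL14A1, which sits on the surface of collagen I fibrils, measured 7.28, 5.74 and 1.59 FPKM in W_Con, 3.75, 4.51 and 2.56 in PW_Con, 5.87, 12.5 and 5.94 in W_Res, and 3.95, 3.30 and 2.74 in PW_Res. It fell with weaning in the resveratrol litters, at -1.01 (SE 0.41, adjusted p = 0.242), with groups that did not overlap, but was at -0.68 without W_Res replicate 2 and at 0.12 in the Ballgown-type model. COL9A2, a partner of type II collagen in cartilage, was the lowest gene of the set, at 0.209, 0.708 and 0.249 FPKM in W_Con, 0.739, 1.20 and 1.66 in PW_Con, 2.10, 1.84 and 0.906 in W_Res, and 1.08, 1.34 and 1.34 in PW_Res. Its W_Con libraries were below all 9 others, giving 0.66 (SE 0.25, adjusted p = 0.246) for weaning in control litters and 0.90 (SE 0.25, adjusted p = 0.123) for diet at 21 days. COL13A1 and COL23A1, with means of 2.41 and 3.59 FPKM, had no P under 0.05. COL19A1 measured 12.9, 15.9 and 13.6 FPKM in W_Con, 14.7, 15.1 and 16.8 in PW_Con, 13.1, 12.4 and 27.4 in W_Res, and 11.7, 10.1 and 11.1 in PW_Res. It had the lowest P of the set for diet at 28 days, -0.47 (SE 0.25, adjusted p = 0.683), with all PW_Res values below all PW_Con values. Only 2.10% of the COL19A1 signal came from the locus with an annotated transcript, and the rest from 2 assembled loci, so that its values rest mostly on those loci.

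Laminins are cross-shaped trimers that assemble the basement membrane, and LAMB1 and LAMC1 are the beta and gamma chains of the widespread forms. LAMB1 measured 19.1, 17.0 and 11.4 FPKM in W_Con, 13.4, 10.9 and 9.27 in PW_Con, 17.7, 42.0 and 17.5 in W_Res, and 12.9, 12.5 and 17.4 in PW_Res. LAMC1 measured 44.5, 50.7 and 29.4 FPKM in W_Con, 28.4, 28.3 and 29.1 in PW_Con, 46.3, 85.7 and 35.0 in W_Res, and 31.2, 28.8 and 26.2 in PW_Res. LAMC1 had a small spread among the weaned piglets, 26.2 to 31.2 FPKM over all 6 libraries, and 5 of the 6 libraries at 21 days exceeded all of these. Its weaning difference was -0.49 (SE 0.29, adjusted p = 0.473) in control litters, with groups that did not overlap, and -0.84 (SE 0.29, adjusted p = 0.196) in resveratrol litters. LAMB1 gave -0.45 (SE 0.32, adjusted p = 0.559) and -0.70 (SE 0.32, adjusted p = 0.283) in the same comparisons. Neither met the standard in any comparison. The study lists LAMC1 among genes it selected on the control libraries, so its direction here is not independent evidence. The 2 LAMC1 loci gave different values. The locus with annotated transcripts measured 16.7, 17.2 and 14.0 FPKM in W_Con and 7.63, 7.13 and 5.71 in PW_Con, a log2 fold change of -1.12 (SE 0.33, adjusted p = 0.153 from limma over 14332 loci). The assembled locus, which held 70.5% of the LAMC1 signal, measured 27.8, 33.5 and 15.4 FPKM in W_Con and 20.8, 21.2 and 23.4 in PW_Con, at -0.16 (SE 0.33). In the resveratrol litters the order was the other way, at -0.45 (SE 0.33) for the annotated and -0.97 (SE 0.33) for the assembled locus. A test of the difference between loci was not made.

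**Figure D2:**
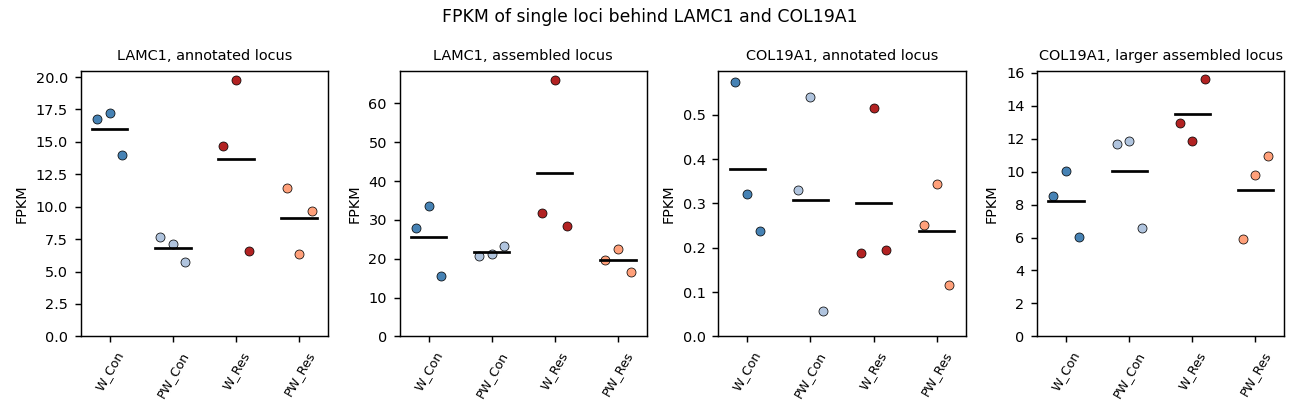
FPKM of single loci in each library by group, on linear axes from 0, with bars at the mean of 3 libraries. The annotated LAMC1 locus is above 13 FPKM in all W_Con libraries and below 8 FPKM in all PW_Con libraries, the assembled LAMC1 locus overlaps between those groups, and the annotated COL19A1 locus stays under 0.6 FPKM.

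NID2, a nidogen that bridges laminin and type IV collagen, measured 5.79, 5.58 and 2.02 FPKM in W_Con, 3.98, 3.94 and 2.53 in PW_Con, 6.80, 19.6 and 5.85 in W_Res, and 5.97, 4.87 and 3.70 in PW_Res. It rose with maternal resveratrol at 21 days, at 1.01 (SE 0.42, adjusted p = 0.231), where every W_Res library exceeded every W_Con library, although the lowest W_Res value of 5.85 FPKM was close to the highest W_Con value of 5.79 FPKM. It was at 0.13 with the 2 libraries left out and in the Ballgown-type model alike, inside the fold limit.

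Fibronectin, an adhesive glycoprotein of the stroma, had the largest fold change of the set. FN1 measured 44.8, 39.1 and 12.2 FPKM in W_Con, 14.8, 28.3 and 8.81 in PW_Con, 49.6, 168 and 42.5 in W_Res, and 35.0, 10.4 and 6.79 in PW_Res. It ranged 24.7-fold over the 12 libraries, from PW_Res replicate 3 to W_Res replicate 2, and the PW_Res libraries lay below all W_Res libraries. FN1 fell with weaning in the resveratrol litters, with a log2 fold change of -2.28 (SE 0.70, adjusted p = 0.160 from limma). It still met the standard without W_Res replicate 2, at -1.67, but turned to 0.90 in the Ballgown-type model. In the control litters it was -0.80 (SE 0.70, adjusted p = 0.654), with groups that overlapped, and the difference between the diets was -1.48 (SE 0.99, adjusted p = 0.520). POSTN, a matricellular protein made by fibroblasts close to the crypts, measured 24.9, 27.2 and 7.44 FPKM in W_Con, 9.82, 10.5 and 12.1 in PW_Con, 14.6, 40.0 and 22.3 in W_Res, and 12.1, 3.98 and 6.03 in PW_Res. The PW_Con libraries were close together, with 2 of 3 W_Con libraries above them and 1 below. POSTN fell in the resveratrol litters, with a log2 fold change of -1.67 (SE 0.49, adjusted p = 0.158 from limma), and was at -0.64 (SE 0.49, adjusted p = 0.599) in the control litters. It kept the standard without W_Res replicate 2, at -1.30, and was at 0.0496 in the Ballgown-type model.

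FBN1, whose product fibrillin forms the microfibrils on which elastin is laid down, was the only matrix gene that met the standard for weaning in the control litters. It measured 6.85, 4.20 and 2.31 FPKM in W_Con, 1.73, 1.33 and 0.602 in PW_Con, 2.16, 3.10 and 1.96 in W_Res, and 2.61, 0.639 and 0.887 in PW_Res. Every W_Con library was above every PW_Con library, and the resveratrol groups overlapped. FBN1 fell with a log2 fold change of -1.24 (SE 0.37, adjusted p = 0.154 from limma) in the control litters and was -0.59 (SE 0.37, adjusted p = 0.425) in the resveratrol litters. Without W_Con replicate 1 the control value was -0.94, inside the fold limit, while in the Ballgown-type model the gene met the standard. Its share of the summed matrix FPKM was 0.481% to 0.677% in W_Con and 0.119% to 0.337% in the 9 other libraries. Thus W_Con replicate 3, which had the least matrix RNA, had the highest FBN1 share.

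ELN, the gene of elastin, is listed only by its identifier and was singled out after its values were seen. It measured 6.41, 4.23 and 1.80 FPKM in W_Con, 6.33, 8.12 and 4.39 in PW_Con, 9.07, 14.1 and 10.5 in W_Res, and 5.33, 2.35 and 2.07 in PW_Res. The W_Res libraries were above all W_Con and all PW_Res libraries. ELN rose with maternal resveratrol at 21 days, at 1.34 (SE 0.38, adjusted p = 0.127), and fell with weaning in the resveratrol litters, with a log2 fold change of -1.58 (SE 0.38, adjusted p = 0.125 from limma). The weaning effects differed between the diets, at -2.16 (SE 0.53, adjusted p = 0.251). Without W_Con replicate 3 and W_Res replicate 2 the weaning effect was -1.42 (SE 0.35) in resveratrol litters and the difference between diets -1.61 (SE 0.49), both still past the standard, while diet at 21 days gave 0.79 (SE 0.38). The Ballgown-type model gave -0.48, -0.95 and 0.73 in the same order, none past the standard.

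Of the proteoglycans, DCN and LUM encode decorin and lumican, which bind collagen fibrils and limit their growth. DCN measured 69.3, 48.2 and 15.8 FPKM in W_Con, 40.6, 27.3 and 36.6 in PW_Con, 44.0, 106 and 39.7 in W_Res, and 26.3, 21.2 and 17.6 in PW_Res. LUM measured 23.5, 21.5 and 7.40 FPKM in W_Con, 15.5, 13.2 and 8.69 in PW_Con, 16.4, 51.7 and 21.0 in W_Res, and 15.0, 9.96 and 7.84 in PW_Res. All PW_Res libraries were below all W_Res libraries in both genes, and for DCN they were also below all PW_Con libraries. DCN fell by 1.37 (SE 0.49, adjusted p = 0.200) and LUM by 1.24 (SE 0.47, adjusted p = 0.224) on the log2 scale in limma with weaning in the resveratrol litters. They were at -0.93 and -0.76 without W_Res replicate 2, not past the standard, and the Ballgown-type model turned them to 0.22 and 0.49. For diet at 28 days DCN was at -0.66 (SE 0.49, adjusted p = 0.782). BGN, the gene of biglycan, measured 8.77, 9.22 and 2.33 FPKM in W_Con, 8.92, 12.1 and 8.01 in PW_Con, 10.4, 22.7 and 10.7 in W_Res, and 9.29, 7.59 and 4.07 in PW_Res. Biglycan had the pattern of COL4A2 and COL6A2. It rose with maternal resveratrol at 21 days, at 1.08 (SE 0.45, adjusted p = 0.228), and its weaning effects differed between the diets, at -1.55 (SE 0.63, adjusted p = 0.324). The rise of BGN was 0.21 with the 2 libraries left out and 0.20 in the Ballgown-type model, inside the fold limit. Its difference between the diets lost the call when either W_Con replicate 3 or W_Res replicate 2 was left out. In the Ballgown-type model that difference was -0.06. VCAN, the large proteoglycan versican, had a mean of 1.51 FPKM and was -0.51 (SE 0.21, adjusted p = 0.251) with weaning in the resveratrol litters.

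**Figure D3:**
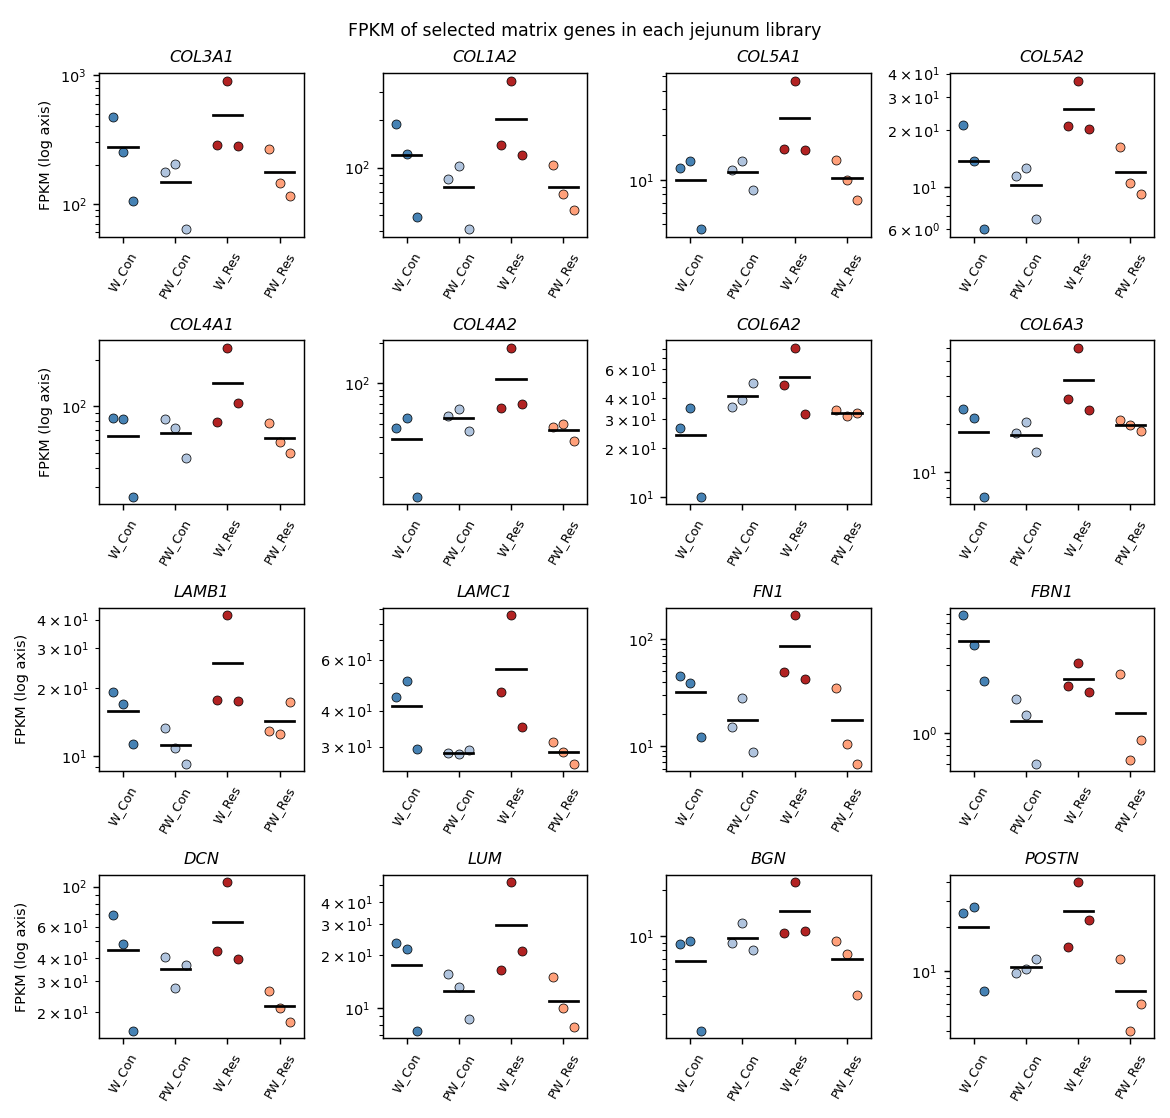
FPKM of selected matrix genes in each library, by group, on log axes, with a point for each library and a bar at the mean of 3. W_Res replicate 2 is the highest point for nearly all genes, and W_Con replicate 3 is the low point that widens the W_Con group, while FBN1 and LAMC1 are the genes shown in which all W_Con points lie above all PW_Con points.

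The genes that anchor the epithelium were listed by identifier only, and among them LAMA3 and COL17A1 went the other way. The group described holds the laminin chains LAMA3 and LAMB3, which are part of the laminin under the epithelium, and COL17A1, a transmembrane collagen of epithelial cells. LAMA3 measured 23.9, 16.3 and 12.6 FPKM in W_Con, 19.0, 15.4 and 6.96 in PW_Con, 7.11, 1.16 and 9.84 in W_Res, and 19.0, 12.2 and 17.9 in PW_Res. COL17A1 measured 10.3, 27.7 and 21.7 FPKM in W_Con, 53.3, 35.0 and 20.3 in PW_Con, 28.7, 1.47 and 30.3 in W_Res, and 57.0, 66.1 and 77.0 in PW_Res. W_Res replicate 2, the highest library for the stromal genes, was the lowest for both, at 1.16 and 1.47 FPKM. LAMA3 rose with weaning in the resveratrol litters, at 1.57 (SE 0.54, adjusted p = 0.187), and fell with maternal resveratrol at 21 days, at -1.65 (SE 0.54, adjusted p = 0.155), with groups that did not overlap in either comparison. In control litters LAMA3 was at -0.38 (SE 0.54, adjusted p = 0.805). Its weaning effects differed between the diets at 1.96 (SE 0.76, adjusted p = 0.305), past the standard and opposite in sign to ELN. Values of that difference with libraries left out are not reported here. COL17A1 rose with weaning in the resveratrol litters, at 2.35 (SE 0.80, adjusted p = 0.187), also without overlap, and gave 0.83 (SE 0.80, adjusted p = 0.692) in control litters. Without W_Res replicate 2 the values in the resveratrol litters were 0.87 (SE 0.39) for LAMA3 and 1.14 (SE 0.43) for COL17A1, so that only COL17A1 still met the standard. At 21 days LAMA3 was at -0.94 without that library, inside the fold limit, and at -1.14 without W_Con replicate 3 as well, past the standard again. In the Ballgown-type model the weaning values turned to -0.30 for LAMA3 and -1.34 for COL17A1, and LAMA3 at 21 days was -1.28, none past the standard. LAMB3 measured 3.80, 3.76 and 8.44 FPKM in W_Con, 10.7, 4.76 and 6.35 in PW_Con, 12.7, 7.20 and 7.41 in W_Res, and 14.8, 9.52 and 10.1 in PW_Res. It had no P under 0.05 in the 5 comparisons, although at 21 days it met the standard without W_Con replicate 3, at 1.04. SPARC, a collagen-binding protein, was the second most abundant gene over both sets, at a mean of 220.0 FPKM, with no P under 0.05. NID1, the other nidogen, measured 30.3, 34.3 and 12.1 FPKM in W_Con, 24.6, 29.8 and 17.5 in PW_Con, 45.0, 103 and 37.3 in W_Res, and 50.0, 31.6 and 24.9 in PW_Res, and rose at 21 days with maternal resveratrol, at 1.22 (SE 0.45, adjusted p = 0.188). That call was lost without W_Con replicate 3 (0.77), without W_Res replicate 2 (0.78) and without both (0.34), and was 0.33 in the Ballgown-type model.

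COL16A1, a fibril-associated collagen, and COL27A1, a fibrillar collagen, are also listed by identifier, and both fell with weaning in the resveratrol litters. COL16A1 measured 6.63, 8.66 and 4.29 FPKM in W_Con, 6.52, 7.21 and 4.81 in PW_Con, 9.90, 28.6 and 7.96 in W_Res, and 7.61, 6.08 and 4.29 in PW_Res. COL27A1 measured 2.48, 5.61 and 0.274 FPKM in W_Con, 0.633, 2.28 and 2.45 in PW_Con, 3.46, 10.8 and 2.78 in W_Res, and 1.71, 1.41 and 0.526 in PW_Res. W_Res replicate 2 was the highest library for both, and every W_Res library lay above every PW_Res library. Their log2 fold changes were -1.06 (SE 0.40, adjusted p = 0.223) and -1.44 (SE 0.59, adjusted p = 0.244). Without W_Res replicate 2 neither met the standard, at -0.53 and -0.93, and the Ballgown-type model turned them to 0.87 and 0.41.

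For weaning in control litters, the 29 genes did not move in 1 direction. Of them 12 were higher and 17 lower at 28 days, with a median log2 fold change of -0.10, against -0.01 over all 12886 genes tested, of which 51.6% were lower. FBN1 was the single gene that met the standard, where 1.74% of all genes met it by falling and 1.36% by rising. At an unadjusted P under 0.05 FBN1 was lower and COL6A2 and COL9A2 were higher, against 7.21% and 8.11% of all genes. Groups did not overlap for COL6A2 and COL9A2, which were higher after weaning, and for FBN1 and LAMC1, which were lower, where 12.5% and 12.4% of all genes did so. Markers of the gut region moved with this comparison: the 5 distal markers were all higher at 28 days (median 1.33, 1 past the standard) and the 6 proximal ones all lower (median -1.74, 3 past it). Their part in the matrix values was not tested. The smooth muscle, fibroblast and endothelial markers had medians of 0.35, 0.29 and 0.45, with 0, 1 and 0 past the standard. Of the 10 fibroblast entries 8 were higher, but PDGFRA fell, at -1.55. It measured 12.3, 8.36 and 5.69 FPKM in W_Con and 4.27, 1.52 and 1.47 in PW_Con. The enterocyte markers were lower for 6 of 8 (median -0.18), and FABP2 and APOA1 fell, at -2.2 and -1.74. The part of these markers in the fall of FBN1 was not tested. Without W_Con replicate 3, 22 of the 29 genes were lower, the log2 fold change of FBN1 was -1.56 and POSTN also met the standard, at -1.20. With W_Res replicate 2 left out as well, COL1A2 at -1.09 and COL3A1 at -1.39 joined them. W_Res replicate 2 is not in this comparison, so its omission left the fold changes as they were and altered only the spread that the 4 groups share. Without W_Con replicate 1 FBN1 was at -0.94, inside the fold limit, and COL6A2 met the standard in its place, at 1.07. Without W_Con replicate 2 COL6A2 joined FBN1, at 1.26. The median of the 29 genes turned positive in both cases, at 0.07 and 0.04.

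Weaning in the resveratrol litters went with lower levels of nearly the whole set. Of the 29 genes, 27 were lower at 28 days, against 65.2% of all genes. Their median log2 fold change was -0.84, against -0.15 over all genes, whereas in the Ballgown-type model 23 were higher. COL1A2, COL5A1, COL5A2, COL4A2, COL14A1, FN1, POSTN, DCN and LUM fell, 9 of 29, where 3.95% of all genes met the standard by falling, and no gene rose, against 0.986%. At an unadjusted P under 0.05, 13 genes were lower, against 14.2% of all genes. In 17 genes the groups did not overlap, all of them lower, against 17.7% of all genes. By role, all 6 fibrillar collagens were lower (3 fell, median -1.08), as were both type IV chains (1 fell), all 4 proteoglycans (2 fell) and both laminin chains (0 fell). Only COL8A1 and COL28A1 were not lower, and just 12.2% of the COL28A1 signal came from a locus with an annotated transcript. The smooth muscle markers were lower for 8 of 8 genes, with 7 past the standard, the fibroblast markers for 10 of 10 entries with 5, and the endothelial markers for 7 of 7 with 2. The neuron and glia markers were lower for 5 of 5 (1 past the standard, median -0.91), and the enterocyte markers higher for 5 of 8 (0, median 0.01). Without W_Res replicate 2, FN1 at -1.67, POSTN at -1.30 and COL26A1 at -1.80 met the standard. COL26A1 did so once its value of 0 in that library was dropped, which left 1.75 and 9.61 FPKM in W_Res. With W_Con replicate 3 also left out the same 3 genes met it. In that case 27 genes were still lower, with a median of -0.58, and the smooth muscle markers were at a median of -1.62, from -2.16. Without W_Res replicate 3 as the single omission 15 genes met the standard, without PW_Res replicate 2 there were 4, and without PW_Res replicate 3 there were 2.

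In the Ballgown-type model most matrix genes changed sign in the resveratrol comparison. That covariate, each library's log2 values summed below their 75th percentile, was 102% to 111% of the 12-library mean in W_Res and 92.3% to 98.1% in PW_Res, so that it runs alongside the groups. In that model 0 genes met the standard, 23 of 29 genes were positive, and FN1 was at 0.90 and POSTN at 0.0496. FBN1 was the 1 gene that met the standard for weaning in control litters in both models.

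Averaged over both diets, a contrast added after the others were seen, COL3A1, FN1 and POSTN fell with weaning. FN1 was at -1.54 (SE 0.49, adjusted p = 0.157), POSTN at -1.16 (SE 0.35, adjusted p = 0.144) and COL3A1 at -1.08 (SE 0.45, adjusted p = 0.233). Of the 29 genes, 26 were lower, against 63.4% of all genes, with a median of -0.38 against -0.10 over all genes. In the Ballgown-type model, however, 21 were higher. The standard was met by 0.683% of all genes by falling and by 0.737% by rising. At an unadjusted P under 0.05, 9 genes were lower, against 12.5% of all genes. The smooth muscle markers were lower for 8 of 8 genes (2 past the standard, median -1.03), the fibroblast markers for 8 of 10 entries (1, median -0.34), the endothelial markers for 6 of 7 (0, median -0.29) and the proximal markers for 6 of 6 (1, median -1.01), while the distal markers were higher for 5 of 5 (0, median 1.00). The neuron and glia markers were lower for 5 of 5 (0, median -0.27). The enterocyte markers were lower for 5 of 8 (median -0.11), and FABP2 and APOA1 fell, at -1.31 and -1.19. FBN1 was at -0.92 (SE 0.26, adjusted p = 0.131) and LAMC1 at -0.66 (SE 0.21, adjusted p = 0.151), both with an unadjusted P under 0.05 but inside the fold limit. With both libraries left out, COL3A1 (-1.09), FN1 (-1.52), POSTN (-1.25) and FBN1 (-1.01) met the standard. Without W_Con replicate 3 alone 7 genes did, without PW_Res replicate 1 5 genes, without PW_Res replicate 2 1 gene, and without W_Res replicate 2 alone FN1 was the only one, at -1.24.

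**Figure D4:**
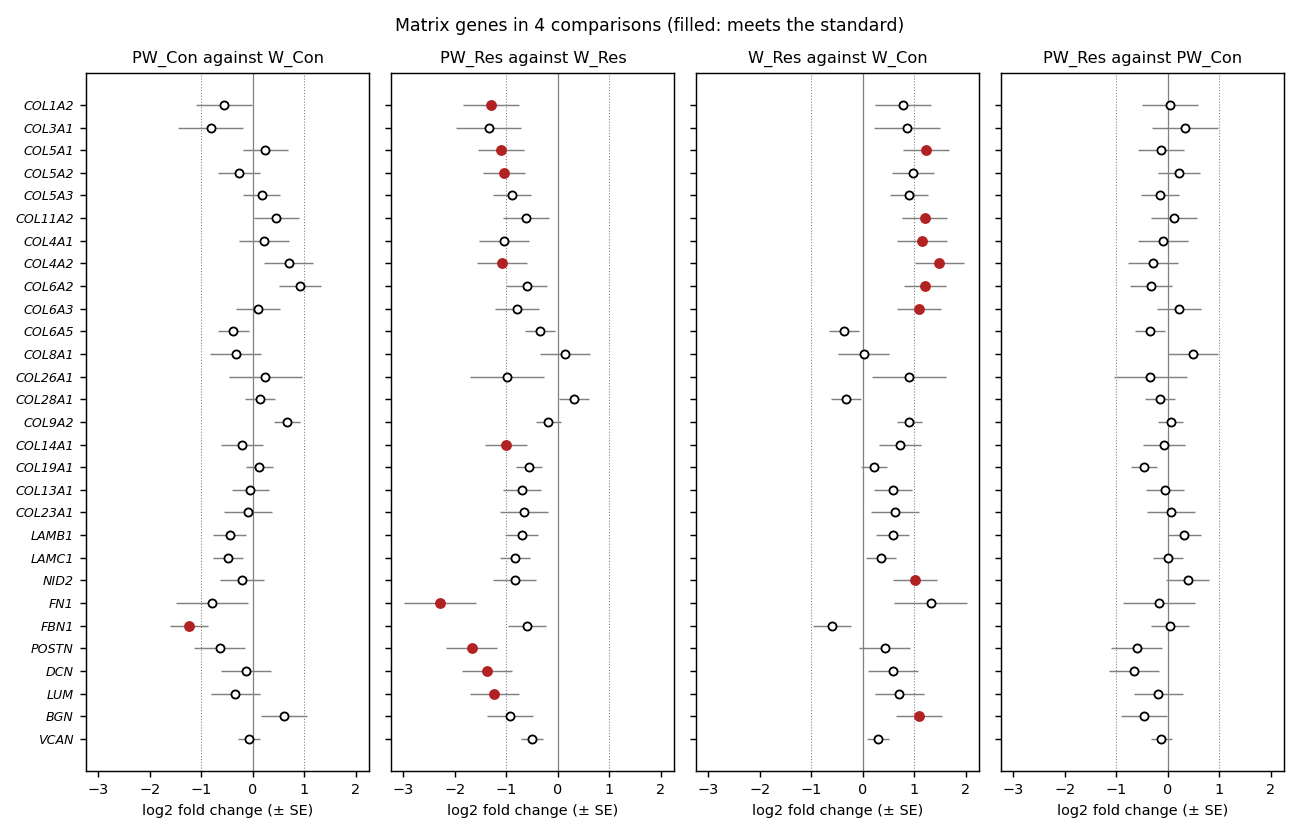
Log2 fold change with its standard error for the 29 matrix genes, ordered by role, in the comparisons PW_Con against W_Con, PW_Res against W_Res, W_Res against W_Con and PW_Res against PW_Con. Filled points meet the standard, and dotted lines mark -1 and 1. They number 1, 9, 8 and 0, all lower in the weaning comparisons and all higher in W_Res than in W_Con. The Ballgown-type model gave 1, 0, 1 and 0, and its 1 gene in W_Res against W_Con was FBN1, lower in W_Res.

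Maternal resveratrol at 21 days went with higher values for 26 of the 29 genes, against 57.3% of all genes, and for 15 in the Ballgown-type model. The median log2 fold change of the 29 was 0.78, against 0.08 over all genes. COL5A1, COL11A2, COL4A1, COL4A2, COL6A2, COL6A3, NID2 and BGN rose, 8 of 29, where 3.34% of all genes met the standard by rising, and no gene fell, against 1.44%. At an unadjusted P under 0.05, 11 genes were higher, against 13% of all genes. The groups did not overlap for 5 genes, all higher in W_Res, against 13.8% of all genes. This comparison shares the W_Res libraries with the previous one and the W_Con libraries with the control weaning comparison, and it sets the group that holds the highest library against the group that holds the lowest. The smooth muscle markers were higher for 8 of 8 genes, with 7 past the standard, the fibroblast markers for 9 of 10 entries with 3, and the endothelial markers for 7 of 7 with 3. The neuron and glia markers were higher for 5 of 5 (0 past the standard, median 0.78) and the enterocyte markers lower for 7 of 8 (0, median -0.68), while of 6 blood and lymphoid markers CD3E and CD2 fell, at -1.78 and -1.37. Without W_Con replicate 3 no matrix gene met the standard. Without W_Res replicate 2, COL11A2 (1.29), COL26A1 (1.70, with its value of 0 in that library dropped) and COL4A2 (1.01) did. With both left out, 14 genes were higher and 15 lower, the median was -0.0024, and FBN1 alone met the standard, lower in W_Res at -1.06. The Ballgown-type model gave the same single gene, FBN1, at -1.16.

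**Figure D5:**
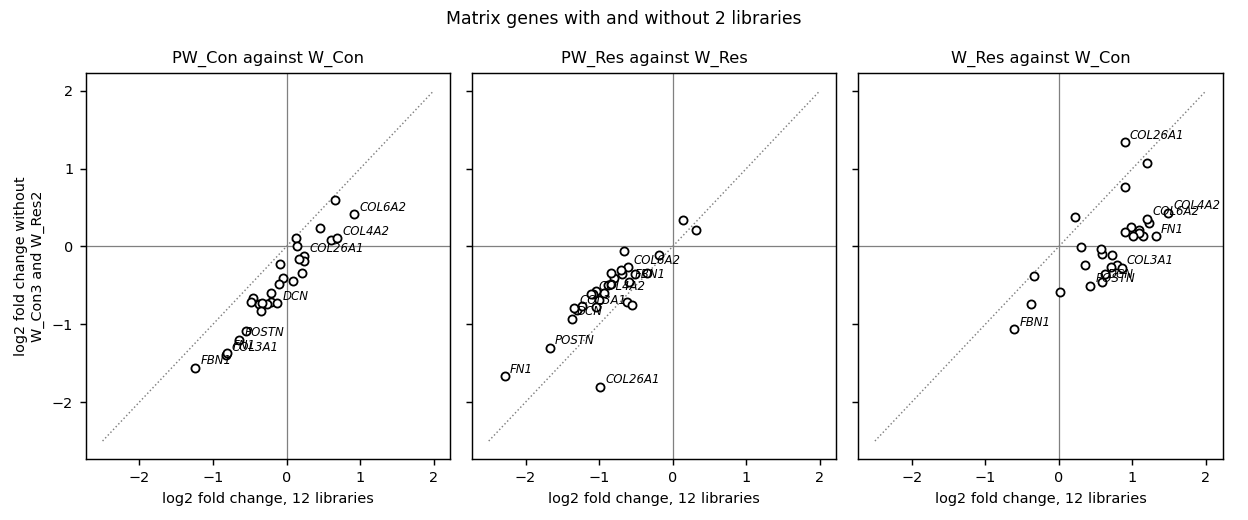
Log2 fold change of the 29 matrix genes over all 12 libraries (horizontal) against the value without W_Con replicate 3 and W_Res replicate 2 (vertical), for 3 comparisons, with the line of equality dotted. In PW_Res against W_Res 27 genes stay below 0, whereas in W_Res against W_Con 26 genes are above 0 with all libraries and 14 without the 2.

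At 28 days no matrix gene met the standard between the diets, and none had an unadjusted P under 0.05 in limma, where 2.51% of all genes were higher and 5.25% lower at that P. Of the 29 genes 12 were higher and 17 lower in PW_Res, where 58.9% of all genes were lower. That split became 15 and 14 with median-of-ratios scaling and 20 and 9 in the Ballgown-type model. The median was -0.10, against -0.07 over all genes, of which 0.652% met the standard by rising and 0.9% by falling. Groups did not overlap for COL19A1, DCN and COL6A2, all lower in PW_Res, against 11.8% of all genes. The 5 distal markers were all lower in PW_Res (median -1.63) and the 6 proximal ones all higher (median 1.48, 2 past the standard). The interval of the difference, at 95% confidence, was -1.06 to 1.73 for COL3A1, -1.34 to 0.76 for COL4A2, -1.70 to 1.36 for FN1 and -0.64 to 0.65 for LAMC1, so that log2 differences of -1 and 1 both lay inside it for COL3A1 and FN1, only -1 did for COL4A2, and neither did for LAMC1.

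The weaning effect was more negative in the resveratrol than in the control litters for 25 of the 29 genes, against 60.9% of all genes, but for 8 in the Ballgown-type model. The median difference of the 29 was -0.80, against -0.15 over all genes. COL4A2, COL6A2 and BGN passed the standard, 3 of 29, where 5.95% of all genes did so in this direction and 1.81% in the other. At an unadjusted P under 0.05 there were 4 genes, all negative, against 10.4% of all genes. The smooth muscle markers were negative for 8 of 8 genes (6 past the standard, median -2.44), the fibroblast markers for 9 of 10 entries (5, median -1.35) and the endothelial markers for 7 of 7 (3, median -1.20), and their part in the matrix values was not tested. The neuron and glia markers were negative for 5 of 5 (3 past the standard, median -1.04), the distal markers for 5 of 5 (0, median -1.03), and the proximal markers positive for 6 of 6 (2, median 1.51). The enterocyte markers were positive for 6 of 8 (1 past the standard, median 0.79), and the blood and lymphoid markers for 3 of 6. COL4A2, COL6A2 and BGN were each higher after weaning in the control litters and lower in the resveratrol litters. Without W_Con replicate 3 the difference was -1.19 for COL4A2 and -1.03 for COL6A2, both still past the standard, and BGN was at -1.02 with an unadjusted P over 0.05. Without W_Res replicate 2 none of the 3 passed, and COL26A1, with its value of 0 in that library dropped, did, at -2.04. With both left out no gene passed, 15 genes were negative and 14 positive, and COL4A2 was at -0.72. Without another single library the count of genes past the standard was 5 or 6 in 5 cases, namely W_Con replicate 1 or 2, W_Res replicate 1 or 3, and PW_Res replicate 1.

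Genes that process, cut, bind or regulate the matrix were compared through 5 lists, which were chosen with earlier results of these data known. Their counts are read beside the shares of all genes that met the standard, 3.95% by falling with weaning in the resveratrol litters and 3.34% by rising with maternal resveratrol at 21 days. Counts of lower genes with weaning in the resveratrol litters are read beside the 65.2% of all genes that were lower. Of the other matrix proteins, 23 of 25 were lower with weaning in the resveratrol litters and 9 fell, among them PRELP at -1.61, MFAP5 at -1.64 and FBLN5 at -1.25, while 9 of 25 rose at 21 days with maternal resveratrol, with AGRN at 1.12, FMOD at 1.84 and MFAP2 at 1.52 as those with the lowest P. With W_Con replicate 3 and W_Res replicate 2 left out only 4 fell, PRELP at -1.07 and MFAP5 at -1.18 among them and FBLN5 at -0.84 not, and 1 rose at 21 days, FMOD at 1.25. In the control litters AGRN, the basement membrane proteoglycan agrin, rose at 1.40 (adjusted p = 0.0882 from limma), while OGN, a small leucine-rich proteoglycan, fell at -1.19 (adjusted p = 0.195), and TNXB, the gene of tenascin-X, rose at 1.03 (adjusted p = 0.244). AGRN and OGN met the standard without the 2 libraries as well, at 1.16 and -1.61, and TNXB did not, at 0.67.

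Of the TGF-beta ligands, binding proteins and targets, 18 of 18 were lower with weaning in the resveratrol litters and 4 fell, including TGFB3 at -1.07 and THBS2 at -1.26, but with the 2 libraries left out 18 were lower and 0 met the standard. TGFBR2, a TGF-beta receptor, rose in the control litters at 1.66 (adjusted p = 0.277) and did not meet the standard without the 2 libraries, at 1.39. Among 17 genes of collagen processing and cross-linking, 16 were lower with weaning in the resveratrol litters and 0 met the standard. P3H2, a collagen prolyl 3-hydroxylase, fell in the control litters at -1.32 (adjusted p = 0.0985) and was at -1.16 without the 2 libraries, still past the standard. P3H1 rose at 21 days with maternal resveratrol at 1.13 (adjusted p = 0.109) and was at 0.73 without them, inside the fold limit. Among the matrix proteases and inhibitors, 4 of 19 fell with weaning in the resveratrol litters, namely MMP2, MMP17, TIMP3 and ADAMTS9 at -1.25, -1.19, -1.32 and -1.12. Without the 2 libraries 0 of 19 met the standard there, with values of -0.76, -0.78, -0.91 and -0.79 in the same order. MMP12, the macrophage metalloelastase, was the 1 that rose in the control litters, at 1.09 (adjusted p = 0.102) with all libraries and 1.15 without the 2, and it fell in PW_Res relative to PW_Con at -1.33 (adjusted p = 0.339). Of 20 matrix receptors, 15 were lower with weaning in the resveratrol litters, near the 65.2% of all genes that were lower, and 0 fell. With maternal resveratrol at 21 days 3 of 20 receptors and 3 of 19 proteases and inhibitors rose. So did 2 of 17 processing genes and 0 of 18 TGF-beta genes. With the 2 libraries left out 0 rose in each of these lists. SDC1 rose in the control litters at 1.19 (adjusted p = 0.211), but without the 2 libraries it was at 0.58 and no longer met the standard. CD44, a receptor for hyaluronan, fell in PW_Res relative to PW_Con, at -1.12 (adjusted p = 0.339 from limma), groups that do not hold the 2 libraries.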

How the data were processed

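Jejunum RNA of 12 piglets was measured by the authors and deposited as FPKM per locus. Per the submitters' processing notes HISAT2 2.0, Bowtie 0.12.2 and StringTie 1.3.0 were used with the pig build Sscrofa10.2, whereas the paper's methods name TopHat, StringTie and Ballgown. The processing notes also name a mouse build beside the pig build. The FPKM values deposited carry no counts, and whole reads could not be recovered from low values, so that depth could not be read from the values. The study gives read numbers for the control libraries only, and they were not used here. Gene models assembled by StringTie share a gene name with annotated loci, and antisense or overlapping transcripts may contribute to them.

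Of 41264 loci, 17650 (42.8%) carry no gene name and were left out. Loci with the same name were summed, which gave 17049 names. Of these, 6232 are Ensembl identifiers, and 2139 were given a symbol from a pig gene name table. Those whose 12-library mean reached 0.5 FPKM (12886) were tested on log2(FPKM + 1) with limma 3.58.1 (R 4.3.3), with a mean-variance trend and all 4 groups sharing the spread. Adjusted p-values are Benjamini-Hochberg values over all genes tested. On simulated data the fit for PW_Con against W_Con recovered 195 of 200 genes (97.5%) changed by a log2 fold change of 2 among 12886, and 5.09% of unchanged genes had a P under 0.05. Most changes of matrix genes given here are smaller than 2, and that recovery does not apply to them.

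The members and lists were chosen with earlier results of these data known. Values by library are given for the 12 matrix genes with the highest means, those of either set that met the standard in any comparison, those with the 3 lowest P in each comparison and the epithelial basement membrane genes, of which 1 is not reported here. In the pathway lists up to 3 genes that met the standard with the lowest P were to be named, and the comparisons in which they are named, and further list genes, were chosen after their values were seen. The genes listed by identifier other than the epithelial ones, and the LAMC1 and COL19A1 loci, were singled out after their values were seen. Results were recomputed with median-of-ratios and with quantile scaling, without a filter, with a 5 FPKM minimum, with 0.1 as pseudocount, by limma without a trend, with the highest locus in place of the sum, with a replicate block, by a linear model of the Ballgown type, on the 6 libraries compared alone, and with each library left out in turn. The contrast averaged over diets, the fits to single loci and the joint omission of 2 libraries were added after the data were seen. So were the ratios of COL1A2 to COL3A1, COL6A2 to COL6A3 and COL6A2 to COL3A1.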

Additional observations from a re-analysis of the deposited data

Results flagged for a closer look

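The effect of weaning differed between the maternal diets for 3 matrix genes by the interaction term of limma, and this is why they are listed. Over all 12886 genes tested, 5.95% met the standard in this direction, against 3 of the 29 matrix genes. The log2 difference, resveratrol minus control, was -1.55 for BGN, -1.77 for COL4A2 and -1.53 for COL6A2, with adjusted p values of 0.324, 0.302 and 0.296. All 3 were higher after weaning in the control litters and lower in the resveratrol litters. Without W_Con replicate 3 the differences were -1.02, -1.19 and -1.03, and without W_Res replicate 2 they were -1.20, -1.30 and -1.18. With both libraries left out they were -0.67, -0.72 and -0.68, and in the Ballgown-type model -0.06, -0.22 and -0.21. Markers of smooth muscle, fibroblasts and endothelium went the same way in this contrast, so that the direction was not particular to these 3 genes. Their medians were -2.44 (6 of 8 past the standard), -1.35 (5 of 10 entries) and -1.20 (3 of 7). Enterocyte markers went the other way for 6 of 8 genes (1 past the standard, median 0.79). Blood and lymphoid markers were split, 3 positive and 3 negative. The part of these markers in the differences was not tested.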

How the results depend on the processing

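The count of matrix genes that met the standard depended on the processing in every comparison except diet at 28 days, where it was 0 under each alternative run. For weaning in control litters the count of 1 became 2 with a pseudocount of 0.1, 0 with a minimum of 5 FPKM, at which FBN1 was no longer tested, and 4 with both extreme libraries left out. For weaning in resveratrol litters the count of 9 became 4 with median-of-ratios scaling, which moved the median of all genes from -0.15 to 0.01, and 0 in the Ballgown-type model and 3 with both libraries left out. For diet at 21 days the count of 8 became 5 with median-of-ratios scaling, 1 in the Ballgown-type model, 4 in a fit to the 6 libraries alone and 1 with both libraries left out. The 1 gene in the last case and in the Ballgown-type model was FBN1, which was lower in W_Res and not among the 8 that rose. For the difference between diets the count of 3 became 5 with the replicate block, 1 in the Ballgown-type model and 0 with both libraries left out. The 1 gene in the Ballgown-type model was positive, and so was none of the 3, which were negative. The averaged weaning effect went from 3 genes to 0 in the Ballgown-type model. With single libraries left out, the counts ranged from 1 to 2, from 2 to 15, from 0 to 11, from 1 to 6 and from 1 to 7 in the same order.

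Among genes with an unadjusted P under 0.05 in the comparison concerned, signs turned in the Ballgown-type model alone. For weaning in resveratrol litters it gave COL14A1 0.12, COL1A2 0.68, COL4A2 0.31, COL5A1 0.74, COL5A2 0.21, COL5A3 0.23, DCN 0.22, FN1 0.90, LAMB1 0.35, LAMC1 0.43, LUM 0.49, POSTN 0.0496 and VCAN 0.11, and for the averaged effect COL1A2 0.15, COL3A1 0.13, COL5A2 0.16 and LUM 0.14. The median LAMB1 to LAMC1 ratio went from 0.421 to 0.625 with the highest locus in place of the sum. The cause was not tested in any of these cases.

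Libraries with the same replicate number did not deviate together (r above 0.1 in 5 of 18 pairs, and 4 of 12 libraries correlated best with their own number), so that the numbers were not taken as pairs. With the replicate block the counts were 1, 11, 9 and 5 for the control, resveratrol, 21-day and difference comparisons. The limits are that depth could not be read from the FPKM values, 3 libraries a group, names that pool annotated and assembled loci, and 2 libraries with extreme matrix and muscle RNA.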
